A study of Mus musculus with 7 samples.

Results

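Interferon-stimulated genes are the genes that a cell switches on when interferon binds its receptor. They were examined here as a list of 44 genes, named with earlier results of these data known. Each was read on 1 probe set that carried its symbol alone, the one with the highest mean signal where a gene had several. Of the 44 genes, 40 had such a probe set, among 19937 genes measured in this way. A filter on low signal kept 37 of them, among 16801 genes tested. Isg15, Gbp2 and Igtp lay only on probe sets shared with other genes, Ifi44 had no listed probe set, and Mx1, Mx2 and Iigp1 did not pass the filter. The 40 genes lie on 16 chromosomes. On the arrays, 20 of them stood above the array median everywhere, 12 nowhere and 8 on some arrays.

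RNA of mouse embryonic fibroblasts, connective tissue cells grown from embryos, was measured on 7 whole-transcript arrays from Affymetrix, to ask how cells without tenascin-C, a glycoprotein of the extracellular matrix encoded by Tnc, differ from cells that make it. The knockout group held 2 clones of Tnc knockout origin. The knockdown group held 2 clones of wild-type origin that stably carried a short hairpin RNA against Tnc, and the wild-type group held 3 clones. All clones were spontaneously immortalised, were given no treatment and grew for 2 days in medium with 10% fetal calf serum. Each array was 1 clone. Whether clones of the same group had separate donor animals is not stated by the labels, and no clone with a control hairpin was analysed here. The p-values therefore measure the spread between these clones.

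Tnc, on chromosome 4, had log2 signals of 8.05 and 8.51 in knockout, 7.34 and 6.52 in knockdown, and 10.89, 11.42 and 11.38 in wild type. It fell in both, with a log2 change of -2.95 ± 0.295 SE in knockout (adjusted p = 0.042) and of -4.30 ± 0.295 SE in knockdown (adjusted p = 0.0339). The knockout signal still lay above the array median on both arrays, and the sources used here do not say whether the probe set covers the deleted part. Arrays correlated at 0.979 to 0.99. Knockout array 2 stood apart in Xist, which acts in X inactivation, at 8.80, with 3.51 to 3.77 elsewhere. The Y-linked genes (Kdm5d, Uty and Eif2s3y) ranged from 3.14 to 4.14 on that array, from 4.86 to 5.46 on the knockdown array numbered 2, and from 6.06 to 8.78 on the remaining 5. The 2 knockout clones thus differed from each other in Xist and in the Y-linked genes, and whether they shared a donor animal was not tested. Of 13 fibroblast markers, 11 lay above the array median on all 7 arrays, and of 15 macrophage and blood markers 12 lay below it on all 7.

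Interferon receptors carry kinases that activate transcription factors, STAT2 with its partner IRF9 among them, which bind a short promoter element, the interferon-stimulated response element. The genes they switch on include the sensors that detect foreign RNA and DNA, the signal factors that pass the message on or damp it, and the effectors that block viruses and intracellular microbes. Fibroblasts both make and answer type I interferon, and a low constant signal keeps many of these genes transcribed without infection.

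The core of the response element is GAAA, 2 bases, GAAA, and it can lie on either strand, where it reads TTTC, 2 bases, TTTC. RefSeq promoter windows (build GRCm38.p6, 250 bases before to 50 after each start) were at hand for 28 of the 40 measured genes, and 14 of the 28 (50%) held the core, against 3.99% of 27025 genes with a window and 3.45% of the 13207 tested genes with one. The shorter element of type II interferon, TTC, 3 bases, GAA, was in 10 of the 28 (35.7%), against 9.55% of all genes, and 5 genes held both. The 250 bases before the start are shown for 5 genes with the core in that stretch, in the order of their p in the comparison of both deficient groups with wild type. They are shown because they place the element beside genes whose signals are given below, and the core is in capitals. Gbp7 lies on the plus strand (chr3:142530086-142530335), as do Ifit1 (chr19:34640639-34640888), Gbp3 (chr3:142559794-142560043) and Stat2 (chr10:128270248-128270497), and Bst2 lies on the minus strand (chr8:71537473-71537722).
Gbp7: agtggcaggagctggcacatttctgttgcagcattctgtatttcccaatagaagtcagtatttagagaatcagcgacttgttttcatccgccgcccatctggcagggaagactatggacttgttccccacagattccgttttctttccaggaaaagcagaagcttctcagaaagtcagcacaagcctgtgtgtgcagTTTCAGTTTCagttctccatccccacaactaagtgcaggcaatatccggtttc
Ifit1: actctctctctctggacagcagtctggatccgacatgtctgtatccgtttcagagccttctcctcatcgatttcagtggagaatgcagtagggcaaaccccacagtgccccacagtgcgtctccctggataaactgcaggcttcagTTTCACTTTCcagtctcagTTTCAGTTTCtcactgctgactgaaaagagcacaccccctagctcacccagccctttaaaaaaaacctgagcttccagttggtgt
Gbp3: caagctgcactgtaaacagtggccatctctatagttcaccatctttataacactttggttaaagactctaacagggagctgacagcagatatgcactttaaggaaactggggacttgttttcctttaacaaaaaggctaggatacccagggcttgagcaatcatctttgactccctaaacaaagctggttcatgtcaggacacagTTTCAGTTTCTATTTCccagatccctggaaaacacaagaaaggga
Stat2: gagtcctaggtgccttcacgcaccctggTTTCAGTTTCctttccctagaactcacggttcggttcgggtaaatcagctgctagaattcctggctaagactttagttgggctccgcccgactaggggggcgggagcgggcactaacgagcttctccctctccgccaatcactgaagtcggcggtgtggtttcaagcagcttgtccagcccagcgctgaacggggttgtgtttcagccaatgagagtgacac
Bst2: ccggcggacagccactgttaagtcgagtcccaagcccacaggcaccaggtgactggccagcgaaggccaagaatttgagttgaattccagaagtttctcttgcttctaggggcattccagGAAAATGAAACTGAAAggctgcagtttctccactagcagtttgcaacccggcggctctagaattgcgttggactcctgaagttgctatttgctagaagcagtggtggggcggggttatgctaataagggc
The core begins 53 bases before the start in Gbp7, 104 and 85 bases before it in Ifit1, 45 and 39 bases before it in Gbp3, where the copies overlap, and 222 bases before it in Stat2. Bst2 holds overlapping copies 130 and 124 bases before its start. In Ddx58 the core begins 3 bases after the start. A match is a description of the sequence and not a measured binding site. The 14 tested genes with the core had a median log2 change of -0.37 in knockout and -0.39 in knockdown, each with 11 of 14 lower. The 14 without it had -0.18 in knockout with 9 lower and -0.15 in knockdown with 11 lower, and this difference was not tested.

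In knockout fibroblasts the interferon-stimulated genes of this list lay low, led by Rtp4, which fell 4.28-fold. The list was chosen with earlier results of these data known, so its shares describe it and test nothing. A further list of such genes, given below, had a median log2 change of -0.13 in knockout and 0.01 in knockdown. Of the 37 tested genes, 27 (73%) were lower in knockout than in wild type by any amount, against 57.1% of all tested genes. The median log2 change of the list was -0.29, and that of all genes was -0.028. At an unadjusted p under 0.05, 15 genes (40.5%) were lower and none higher, against 5.5% and 7.33% of all genes. For 22 genes (59.5%) both knockout arrays lay below all 3 wild-type arrays, against 15.3% of all genes, and for none did both lie above. At an adjusted p under 0.05 (limma, Benjamini-Hochberg over all tested genes), 1 gene was lower, Rtp4, against 0.0476% of all genes. Knockout array 2 and knockdown array 2 differed in sex-linked genes. Without both, each of these groups keeps 1 array, so no count is given here. The list median lay between -0.35 and -0.23 under every alternative, this one among them. In these bulk samples fewer cells of a type and less RNA per cell cannot be told apart.

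**Figure D1:**
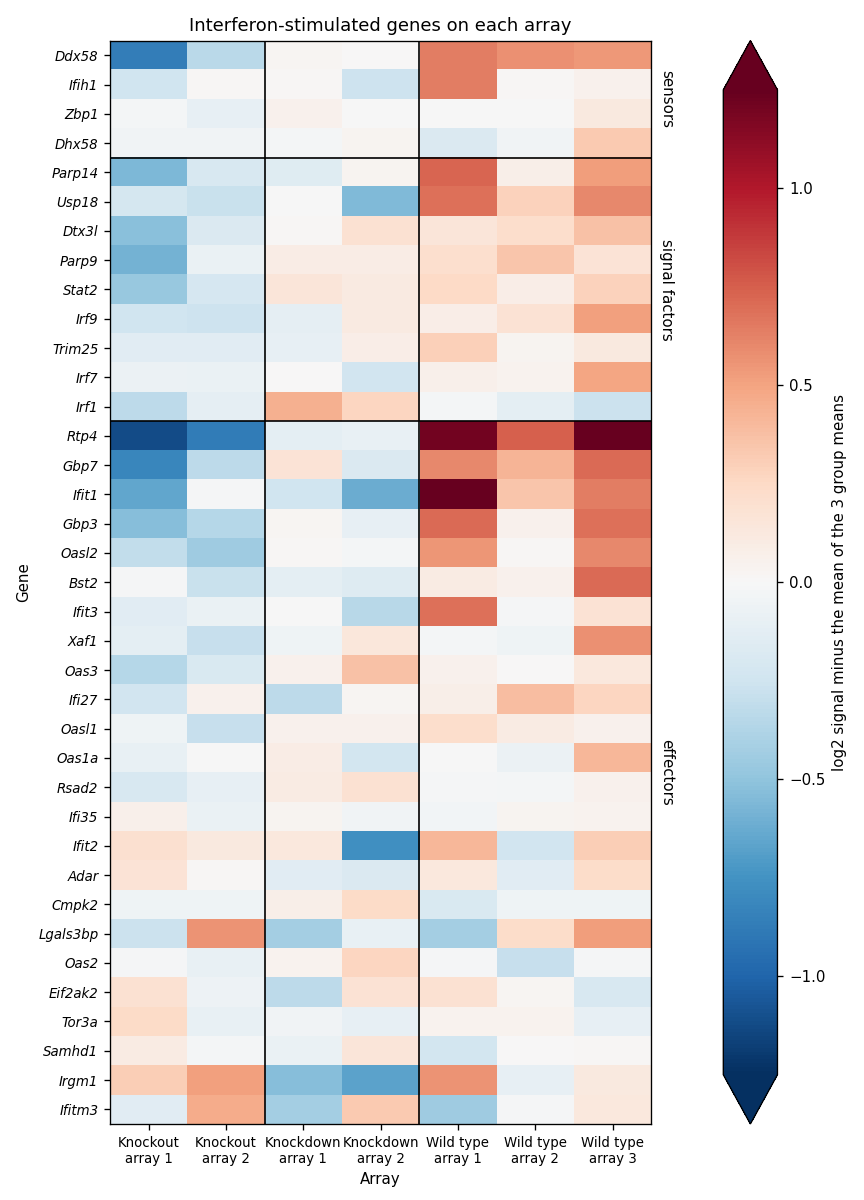
Each row is an interferon-stimulated gene, in blocks of sensors, signal factors and effectors, and each column is an array, with knockout left, knockdown in the middle and wild type right. Colour gives the log2 signal minus the mean of the 3 group means, blue below and red above it, with values beyond the scale drawn in its end colours. The 2 knockout columns are mostly blue in the signal factor block, and Rtp4, Ddx58, Gbp7 and Ifit1 span the widest range of colour.

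In knockdown fibroblasts the same list also lay low, with smaller changes for most signal factors. Of the 37 genes, 30 (81.1%) were lower than in wild type by any amount, against 42.9% of all genes, and the list median was -0.18 beside 0.028 for all genes. At an unadjusted p under 0.05, 7 genes (18.9%) were lower, Rtp4, Ddx58, Usp18, Ifit1, Gbp7, Irgm1 and Ifi27, against 6.99% of all genes. Irf1 and Cmpk2 (5.41%) were higher, against 7.12% of all genes, and Cmpk2 passed the low-signal filter through its knockdown arrays alone, so its higher signal there supports nothing. Both knockdown arrays lay below all wild-type arrays for 13 genes (35.1%), against 12.9% of all genes, and above them for 4 (10.8%), Cmpk2 included, against 17.5%. None of the 37 passed the adjusted threshold (limma), which 0.0179% of all genes passed on the lower side. Without knockdown array 2, alone or with knockout array 2, the knockdown group keeps 1 array, so no count is given here either. The list median lay between -0.28 and -0.14 under every alternative, these among them. The count of lower genes at an unadjusted p under 0.05 was 7 of 37 without wild-type array 1. It was 11 without wild-type array 2 and 5 without wild-type array 3, and the shares of all genes in those fits are not given. Knockout and knockdown were set against the same 3 wild-type arrays, so a low or high wild-type clone moves both comparisons.

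With the knockout and knockdown means averaged and set against wild type, 31 of 37 genes (83.8%) were lower by any amount, against 49.9% of all genes. The list median was -0.24, and that of all genes was 0.000. At an unadjusted p under 0.05, 14 genes (37.8%) were lower and none higher, against 5.78% and 6.48% of all genes. Without wild-type array 3 the count was 9, and the share of all genes in that fit is not given. For 11 genes (29.7%) all 4 deficient arrays lay below all 3 wild-type arrays, against 3.55% of all genes. None passed the adjusted threshold (limma), which 0.0119% of all genes passed on the lower side. These 11 genes were Ddx58, Irf7, Usp18, Parp9, Parp14, Rtp4, Ifit1, Ifi27, Bst2, Gbp3 and Gbp7.

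Set against knockdown, the knockout arrays showed 22 of 37 genes (59.5%) lower by any amount, close to the 59.3% of all genes, and a list median of -0.09 beside -0.050 for all genes. At an unadjusted p under 0.05, 9 genes (24.3%) were lower, against 8.87% of all genes, and 1 (2.7%), Irgm1, was higher, against 9.05%. No gene of the list passed the adjusted threshold (limma), which 0.101% of all genes passed on the lower side. Without knockout array 2, Ddx58 passed it. The signal factors had the lowest median of the role classes here, -0.32 with 4 of 9 lower at an unadjusted p under 0.05, beside 0.00 for the effectors and -0.07 for the sensors.

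The median of the list on each array, after each gene's mean of the 3 group means was subtracted, was -0.15 and -0.09 in knockout, 0.00 and 0.01 in knockdown, and 0.13, 0.03 and 0.26 in wild type. As deposited, the knockout arrays were the lowest, and wild-type array 2 lay near the knockdown arrays. With arrays centred on their medians the list stood at -0.12 and -0.03 in knockout and -0.05 and -0.01 in knockdown, so that these groups overlapped, and at 0.15, 0.04 and 0.22 in wild type. For the signal factors the medians were -0.32 and -0.18 in knockout, -0.00 and 0.10 in knockdown, and 0.20, 0.09 and 0.37 in wild type. All tested genes together lay between -0.02 and 0.02 on every array.

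**Figure D2:**
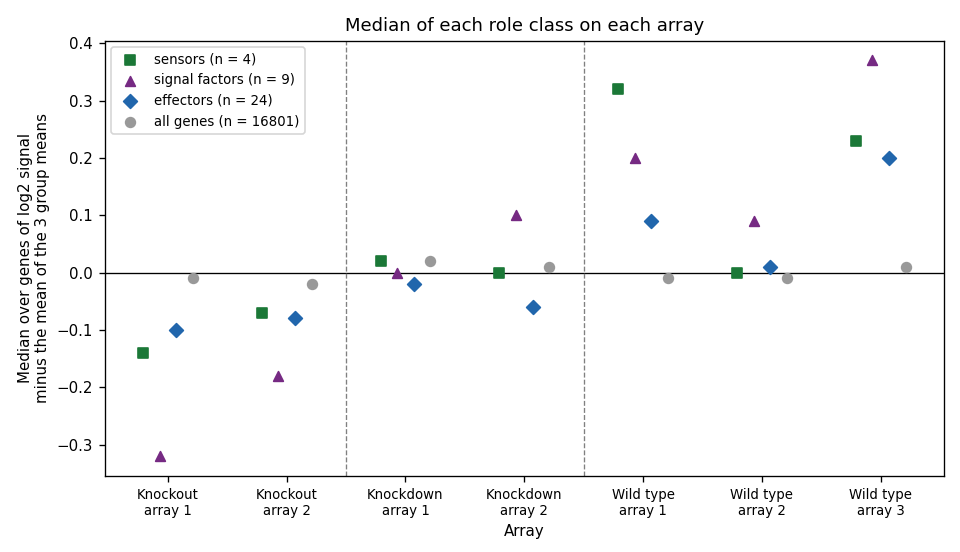
The y axis gives the median, over the genes of a class, of the log2 signal minus the gene's mean of the 3 group means, and the x axis gives the 7 arrays, knockout left and wild type right. Squares are sensors, triangles signal factors, diamonds effectors and grey circles all tested genes. The signal factors run from -0.32 on knockout array 1 to 0.37 on wild-type array 3, while all genes stay within 0.02 of 0.

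All 4 sensors of the list of 44 were tested, and Ddx58 was the only one with an unadjusted p under 0.05 in either comparison. Ddx58, on chromosome 4, encodes RIG-I, which detects viral RNA ends. Its log2 signal was 6.69 and 7.21 in knockout, 7.58 and 7.56 in knockdown, and 8.19, 8.12 and 8.09 in wild type. The 3 groups did not overlap, and the wild-type arrays differed little from each other. The change was -1.19 ± 0.152 SE in knockout (adjusted p = 0.0668) and -0.57 ± 0.152 SE in knockdown (adjusted p = 0.208). Its difference of knockout from knockdown was -0.62 ± 0.167 SE (adjusted p = 0.164). The knockout change passed the adjusted threshold under 4 of 17 alternative settings, with adjusted p between 0.0223 and 0.274. Ifih1 encodes MDA5, a sensor of long double-stranded RNA, and stood at 4.48 and 4.74 in knockout, 4.74 and 4.47 in knockdown, and 5.36, 4.74 and 4.78 in wild type. Only wild-type array 1 stood out, and the groups overlapped. Zbp1, which detects nucleic acids in the left-handed Z form, stood at 4.70 and 4.62 in knockout, 4.78 and 4.72 in knockdown, and 4.72, 4.72 and 4.85 in wild type. Dhx58 encodes LGP2, a regulator of the other RNA sensors, and stood at 4.56 and 4.56 in knockout, 4.58 and 4.64 in knockdown, and 4.42, 4.56 and 4.93 in wild type. Ifih1, Zbp1 and Dhx58 lay below the array median on every array, and their changes ranged from -0.35 to -0.08 for knockout and from -0.36 to -0.02 for knockdown.

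Of the 10 signal factors, 9 were tested, and all 9 were lower in knockout, against 57.1% of all genes, with a median of -0.56. With an unadjusted p under 0.05, 7 of them (77.8%) were lower, against 5.5% of all genes. In knockdown 8 of the 9 (88.9%) were lower, against 42.9%, with a median of -0.16, and 1 (11.1%), Usp18, was lower at that threshold, against 6.99%. Stat2, a subunit of the factor that binds the response element, had signals of 7.03 and 7.30 in knockout, 7.66 and 7.62 in knockdown, and 7.76, 7.59 and 7.80 in wild type. The knockout arrays lay below the other 5, and the knockdown arrays lay within the wild-type range. The change was -0.56 ± 0.112 SE in knockout (adjusted p = 0.136) and -0.08 ± 0.112 SE in knockdown (adjusted p = 0.794). Irf9, its DNA-binding partner on chromosome 14, stood at 6.72 and 6.71 in knockout, 6.86 and 7.08 in knockdown, and 7.05, 7.15 and 7.48 in wild type. Here too the knockout arrays were the lowest, with a change of -0.51 ± 0.146 SE (adjusted p = 0.242). Irf7, the factor that amplifies interferon production, stood at 4.86 and 4.85 in knockout, 4.94 and 4.70 in knockdown, and 5.0, 4.98 and 5.43 in wild type. Its 4 deficient arrays lay below the wild-type arrays, but neither change reached an unadjusted p of 0.05.

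Irf1, a factor that answers mainly type II interferon, was the 1 signal factor with a higher signal in knockdown than in wild type. It stood at 6.94 and 7.15 in knockout, 7.71 and 7.53 in knockdown, and 7.24, 7.14 and 6.99 in wild type. Both knockdown arrays lay above the other 5, with a change of 0.50 ± 0.117 SE (adjusted p = 0.188), and the knockout change was -0.08 ± 0.117 SE. Averaged over the probe sets of Irf1, the knockdown change was 0.21 (adjusted p = 0.275, limma). Knockout and knockdown differed by -0.57 ± 0.129 SE (adjusted p = 0.124).

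Usp18 removes the ubiquitin-like protein ISG15 from its targets and damps the type I receptor. It had signals of 5.28 and 5.22 in knockout, 5.49 and 4.95 in knockdown, and 6.19, 5.79 and 6.10 in wild type. All 4 deficient arrays lay below the wild-type arrays, and the changes were -0.78 ± 0.19 SE in knockout (adjusted p = 0.19) and -0.81 ± 0.19 SE in knockdown (adjusted p = 0.188). Without knockdown array 2 the knockdown change was -0.54. Trim25, a ubiquitin ligase that activates RIG-I, stood at 7.59 and 7.59 in knockout, 7.63 and 7.81 in knockdown, and 8.03, 7.76 and 7.85 in wild type. Its knockout change was -0.29 ± 0.106 SE (adjusted p = 0.346), and its knockdown arrays overlapped the wild-type arrays.

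Parp14, Dtx3l and Parp9 are neighbours on chromosome 16 with no gene between them. Parp14 and Parp9 belong to the ADP-ribosyltransferase family, and Dtx3l is a ubiquitin ligase that works in a complex with Parp9. Parp14 had signals of 4.85 and 5.22 in knockout, 5.26 and 5.45 in knockdown, and 6.14, 5.49 and 5.94 in wild type. Dtx3l stood at 4.93 and 5.27 in knockout, 5.47 and 5.64 in knockdown, and 5.60, 5.67 and 5.82 in wild type. Parp9 stood at 5.75 and 6.26 in knockout, 6.44 and 6.44 in knockdown, and 6.55, 6.69 and 6.51 in wild type. In all 3 genes knockout array 1 was the lowest of the 7 arrays and both knockout arrays lay below every other array. The knockout changes were -0.82 ± 0.216 SE for Parp14 (adjusted p = 0.215), -0.60 ± 0.131 SE for Dtx3l (adjusted p = 0.159) and -0.58 ± 0.156 SE for Parp9 (adjusted p = 0.22). Without knockout array 1 the Parp9 change was -0.32. The knockdown changes were -0.50, -0.14 and -0.14, in the same order of genes.

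**Figure D3:**
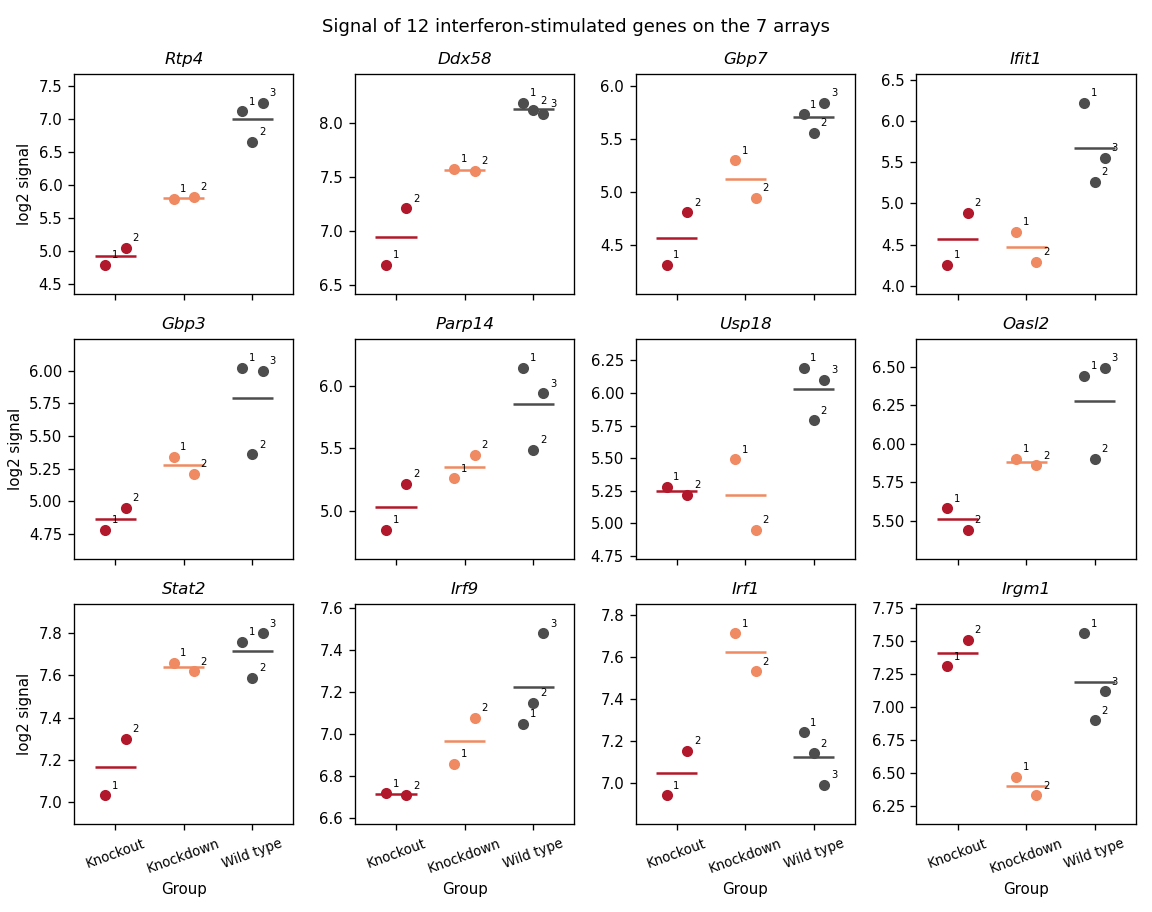
Each panel is 1 gene, with the log2 signal on the y axis (each panel has its own range) and knockout, knockdown and wild type from left to right. A point is an array with its number beside it, and a bar is the group mean. Rtp4 and Ddx58 lie in 3 separate levels, Irf1 is highest in knockdown (7.71 and 7.53), and Irgm1 is lowest in knockdown (6.47 and 6.33).

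The effectors held both the widest changes and most of the genes with little change. Of 30 listed, 27 were measured and 24 tested. In knockout 14 (58.3%) were lower and 10 higher, close to the 57.1% of all genes, with a median of -0.16. At an unadjusted p under 0.05, 7 (29.2%) were lower, against 5.5% of all genes. In knockdown 18 (75%) were lower, against 42.9% of all genes, with a median of -0.21, and 5 (20.8%) were lower at that threshold, against 6.99%. Ifit2, Adar and Lgals3bp, all within 0.04 of 0 in knockout, turned to the lower side with quantile normalization, and Ifi35 turned to the higher side with arrays centred on their medians.

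Rtp4, on chromosome 16, encodes an interferon-induced transmembrane protein that chaperones receptors and restricts some flaviviruses. Its log2 signal was 4.79 and 5.04 in knockout, 5.79 and 5.82 in knockdown, and 7.12, 6.66 and 7.25 in wild type. The groups formed 3 separate levels, below the array median in knockout and above it in knockdown and wild type. In knockout Rtp4 fell 4.28-fold, a log2 change of -2.10 ± 0.187 SE (adjusted p = 0.0287). Its knockdown change was -1.21 ± 0.187 SE, a 2.31-fold difference with an adjusted p of 0.123, and knockout differed from knockdown by -0.89 ± 0.205 SE (adjusted p = 0.132). The call in knockout was lost without wild-type array 1 or 3, and without either array of knockout or of knockdown (adjusted p between 0.0648 and 0.126). It was also lost with array weights (0.0662), in a fit of the compared groups alone (0.112) and without knockout array 2 and knockdown array 2 together (0.179), while the change itself lay between -2.27 and -1.94 under every alternative tried.

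Gbp7 and Gbp3 are neighbours on chromosome 3 and encode guanylate-binding proteins, GTPases that attack the vacuoles of intracellular microbes. Gbp7 had signals of 4.32 and 4.81 in knockout, 5.30 and 4.95 in knockdown, and 5.73, 5.56 and 5.84 in wild type. Gbp3 stood at 4.78 and 4.95 in knockout, 5.34 and 5.21 in knockdown, and 6.02, 5.36 and 6.00 in wild type. In both genes the order of the groups was knockout, knockdown, wild type with no overlap, though wild-type array 2 of Gbp3 lay next to the knockdown arrays. The knockout changes were -1.14 ± 0.185 SE for Gbp7 (adjusted p = 0.0937) and -0.93 ± 0.212 SE for Gbp3 (adjusted p = 0.172). The knockdown changes were -0.59 ± 0.185 SE for Gbp7 (adjusted p = 0.258) and -0.52 ± 0.212 SE for Gbp3 (adjusted p = 0.357). Both genes hold the response element core in the stretches printed above.

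Ifit1, on chromosome 19, binds foreign RNA that lacks a full cap and blocks its translation. It had signals of 4.26 and 4.89 in knockout, 4.66 and 4.29 in knockdown, and 6.22, 5.26 and 5.55 in wild type. The deficient arrays lay below the wild-type arrays, which themselves spread over nearly a whole log2 unit. The changes were -1.10 ± 0.327 SE in knockout (adjusted p = 0.259) and -1.20 ± 0.327 SE in knockdown (adjusted p = 0.213). Its neighbours had smaller changes. Ifit3 had -0.40 in knockout and -0.46 in knockdown, and Ifit2 had 0.00 in knockout and -0.48 in knockdown, where array 2 stood at 7.34 and array 1 at 8.24.

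The Oas and Oasl genes on chromosome 5, whose enzymes make the small molecule that activates RNase L or are relatives of those enzymes, differed among themselves. Oasl2 had signals of 5.58 and 5.44 in knockout, 5.90 and 5.86 in knockdown, and 6.44, 5.90 and 6.49 in wild type, with wild-type array 2 at the knockdown level. Its change was -0.77 ± 0.187 SE in knockout (adjusted p = 0.188) and -0.40 ± 0.187 SE in knockdown (adjusted p = 0.415). Oas3 stood at 4.65 and 4.82 in knockout, 5.06 and 5.37 in knockdown, and 5.06, 5.01 and 5.14 in wild type. Its change was -0.34 ± 0.116 SE in knockout (adjusted p = 0.326) and 0.15 ± 0.116 SE in knockdown. Oasl1, which in mouse represses translation of Irf7, stood at 6.13 and 5.89 in knockout, 6.23 and 6.23 in knockdown, and 6.40, 6.28 and 6.23 in wild type. The knockout change was -0.29 ± 0.0996 SE (adjusted p = 0.324), and -0.17 without knockout array 2. Oas1a had -0.16 in knockout and -0.18 in knockdown, and Oas2 had 0.05 in knockout and 0.26 in knockdown.

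Irgm1 and Ifi27 had an unadjusted p under 0.05 in knockdown and not in knockout, which does not show that the comparisons differ. Irgm1, on chromosome 11, a GTPase that controls autophagy and the other immunity-related GTPases, had signals of 7.31 and 7.51 in knockout, 6.47 and 6.33 in knockdown, and 7.56, 6.90 and 7.12 in wild type. Only the knockdown arrays lay below wild type, with a change of -0.80 ± 0.198 SE (adjusted p = 0.196), and the knockout change was 0.21 ± 0.198 SE. Knockout and knockdown differed by 1.01 ± 0.217 SE (adjusted p = 0.117). Ifi27, a small interferon-induced membrane protein, stood at 7.72 and 8.01 in knockout, 7.63 and 7.98 in knockdown, and 8.03, 8.34 and 8.22 in wild type. Its changes were -0.33 ± 0.156 SE in knockout (adjusted p = 0.449) and -0.39 ± 0.156 SE in knockdown (adjusted p = 0.348), and wild-type array 1 lay next to the deficient arrays. Without knockdown array 1 the knockdown change was -0.21. Cmpk2, a mitochondrial nucleotide kinase, stood at 3.93 and 3.93 in knockout, 4.06 and 4.22 in knockdown, and 3.80, 3.93 and 3.93 in wild type. The knockdown arrays alone lay above the 25th percentile of the arrays (3.98 to 4.05). They let Cmpk2 through the filter, so its knockdown change of 0.26 is a description and no test of it is given.

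The 14 effectors with an unadjusted p of 0.05 or more in both comparisons had changes that ranged from -0.44 to 0.26 for knockout and from -0.48 to 0.26 for knockdown. Bst2 encodes tetherin, which holds budding viruses at the cell surface, and stood at 7.10 and 6.84 in knockout, 7.0 and 6.96 in knockdown, and 7.22, 7.17 and 7.83 in wild type. Its deficient arrays lay below the wild-type arrays, with changes of -0.44 and -0.43 and wild-type array 3 far above the other wild-type arrays. Xaf1, an interferon-induced promoter of apoptosis, had -0.37 in knockout and -0.12 in knockdown. Changes within 0.30 of 0 in both comparisons were seen for the RNA-activated kinase gene Eif2ak2, the RNA-editing enzyme gene Adar, the nucleotide hydrolase gene Samhd1, the viral entry inhibitor gene Ifitm3, Tor3a, Ifi35, Oas1a, Oas2 and Rsad2. Lgals3bp had 0.04 in knockout and -0.36 in knockdown, with arrays spread from 7.75 to 8.73. Of the genes that were not tested, Mx1 lay at 2.97 to 3.18, Mx2 at 3.29 to 4.11 and Iigp1 at 3.45 to 4.07 over the 7 arrays.

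**Figure D4:**
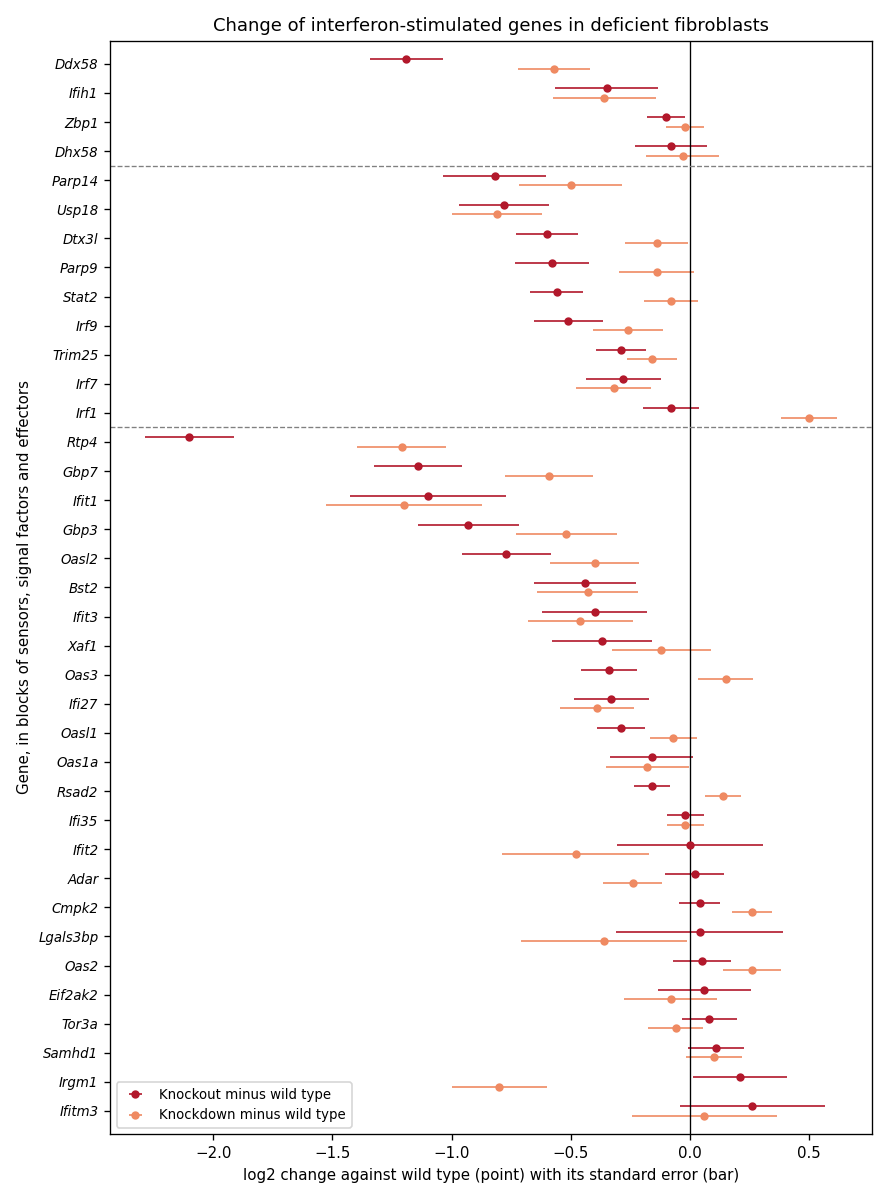
The x axis gives the log2 change against wild type and the y axis the tested genes, in blocks of sensors, signal factors and effectors from top to bottom. Red points are knockout minus wild type and orange points knockdown minus wild type, each with its standard error as a bar. Rtp4 lies farthest left (-2.10 in knockout and -1.21 in knockdown), and Irf1 lies farthest right (0.50 in knockdown).

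Within wild type the clones stood farther apart in these genes than in genes at large, as a description of 3 arrays. The median SD of the 37 genes was 0.123 within knockout, 0.13 within knockdown and 0.205 within wild type, beside 0.11, 0.0997 and 0.113 for all genes in the same order of groups. Wild-type array 2 was the lowest wild-type array for 21 of the 37 genes (56.8%), against 28.8% of all genes, and the highest for 3 (8.11%), against 26.6%. Wild-type array 3 was the highest for 19 (51.4%), against 36.8% of all genes. The median of the 13 fibroblast markers, on the same centred scale as the list, was 0.06 and 0.22 in knockout, 0.13 and 0.11 in knockdown, and -0.58, 0.01 and -0.16 in wild type. The part of this difference in the interferon-stimulated genes was not tested.

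Some receptor and kinase genes lay on the other side of 0 in knockout, mainly Jak2 and 4 receptor genes adjacent on chromosome 16. Ifngr1 (0.03), Ifnlr1 (0.02), Jak1 (0.01) and Tyk2 (-0.01) lay near 0 there. Of 9 tested receptor and kinase genes, 8 (88.9%) were higher in knockout, against 42.8% of all genes, with a median of 0.30. Wild-type array 1 stood apart here. The median of these genes per array, centred as for the list, was 0.16 and 0.10 in knockout and 0.08 and -0.04 in knockdown. In wild type it was -0.35, -0.05 and -0.02. Of the 9, 4 (44.4%) were higher at an unadjusted p under 0.05, against 7.33%, and none passed the adjusted threshold (limma), which 0.119% of all genes passed on the higher side. With quantile normalization Ifngr1 and Jak1 turned lower and Tyk2 higher, all within 0.03 of 0, and with median-centred arrays Tyk2 turned higher. In knockdown 6 (66.7%) were higher and 3 lower, against 57% of all genes higher, and none had an unadjusted p under 0.05. Ifnar2, Il10rb, Ifnar1 and Ifngr2 are adjacent on chromosome 16 with no gene between them. Ifnar1, a chain of the type I receptor, had signals of 8.90 and 8.67 in knockout, 8.72 and 8.79 in knockdown, and 8.33, 8.63 and 8.52 in wild type, with a knockout change of 0.30 ± 0.12 SE (adjusted p = 0.386). Ifnar2, its partner chain, stood at 8.55 and 8.52 in knockout, 8.50 and 8.48 in knockdown, and 7.62, 8.33 and 8.44 in wild type, where array 1 was far lower than the others. Il10rb, a chain shared by the interleukin-10 and type III interferon receptors, had a knockout change of 1.08 ± 0.348 SE (adjusted p = 0.296). Ifngr2, of the type II receptor, had 0.91 ± 0.303 SE (adjusted p = 0.309), and its kinase Jak2 had 0.80 ± 0.265 SE (adjusted p = 0.308).

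**Figure D5:**
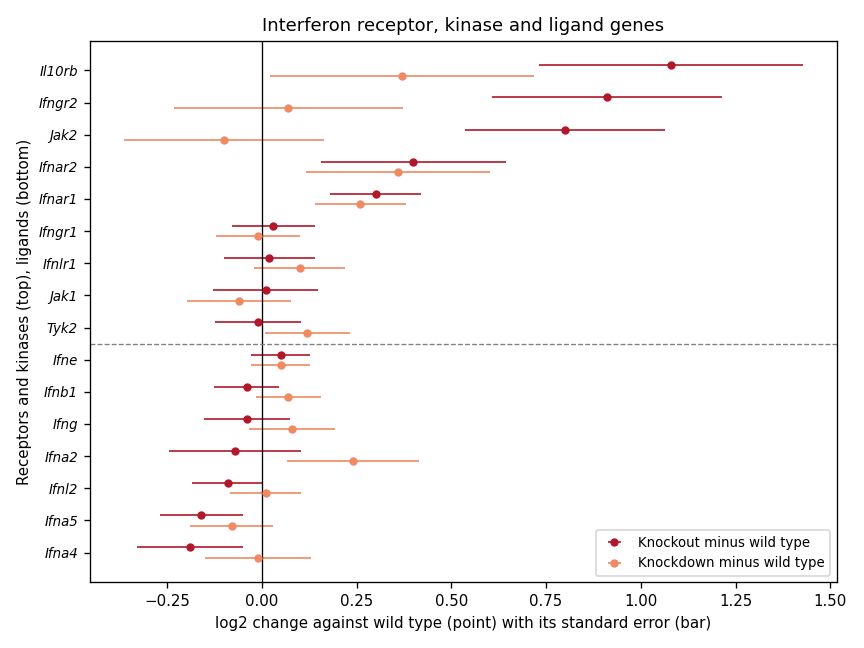
The x axis gives the log2 change against wild type with its standard error as a bar, and the y axis gives receptor and kinase genes in the upper block and interferon genes in the lower block. Red is knockout minus wild type and orange knockdown minus wild type. Il10rb (1.08), Ifngr2 (0.91) and Jak2 (0.80) lie to the right in knockout, and the interferon genes lie between -0.19 and 0.24.

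Of the interferon genes themselves 8 were measured. Of these, 6 lay below the array median on all 7 arrays, 7 were tested, and none had an unadjusted p under 0.05 in knockout or knockdown, where the medians were -0.07 and 0.05. Another list held adaptors, kinases and transcription factors that act below sensors, and also the sensor genes Cgas, Tlr3, Tlr7 and Tlr9. Of its 12 tested genes, 10 (83.3%) were lower in knockout, against 57.1% of all genes, and 7 (58.3%) in knockdown, against 42.9%. Of these, 1 (8.33%) was lower in knockout at an unadjusted p under 0.05, near the 5.5% of all genes. It was Irf5, a factor activated by Toll-like receptors, with -0.57 ± 0.166 SE in knockout (adjusted p = 0.253) and -0.36 ± 0.166 SE in knockdown. Mavs, Sting1 and Traf6, all within 0.05 of 0 in knockout, turned higher with median-centred arrays.

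Inhibitors of these pathways formed a list that also held the nuclease genes Trex1, Rnaseh2a, Rnaseh2b and Rnaseh2c. Among its 16 tested genes the medians were -0.03 in knockout and 0.03 in knockdown, close to those of all genes. In all, 1 (6.25%) was higher in knockout at an unadjusted p under 0.05, near the 7.33% of all genes, and in knockdown 2 (12.5%) were lower and 2 higher, against 6.99% and 7.12%. Cyld, a deubiquitinase that restrains RIG-I, stood at 8.60 and 8.82 in knockout, 7.99 and 8.01 in knockdown, and 9.0, 8.55 and 8.70 in wild type, so that only knockdown lay low (change -0.75 ± 0.149 SE, adjusted p = 0.162). Rnaseh2a, a subunit of the nuclease that clears RNA from DNA, had -0.39 ± 0.119 SE in knockdown (adjusted p = 0.243). Socs1, an inhibitor of the receptor kinases, had 0.35 ± 0.126 SE in knockdown (adjusted p = 0.311), and the SUMO ligase gene Pias2 had 0.28 ± 0.109 SE (adjusted p = 0.331). Its relative Pias1 had 0.39 ± 0.115 SE in knockout (adjusted p = 0.251).

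A further list of 60 interferon-stimulated genes outside the 44 was read in the same way, and 38 of its 48 measured genes were tested. In knockout 25 (65.8%) were lower, against 57.1% of all genes, with a median of -0.13. Of the 38, 5 (13.2%) were lower at an unadjusted p under 0.05 and 2 (5.26%) higher there, against 5.5% and 7.33% of all genes. In knockdown 18 (47.4%) were lower, near the 42.9% of all genes, with a median of 0.01, and 2 (5.26%) were lower and 4 (10.5%) higher at that threshold, against 6.99% and 7.12%. The lower genes of both comparisons include Phf11d, which passed the low-signal filter through wild-type arrays 1 and 3 alone (4.29 and 4.36). Its place among them therefore supports nothing. None passed the adjusted threshold in either comparison (limma). Samd9l, an interferon-induced inhibitor of virus replication and cell growth, had signals of 4.26 and 4.87 in knockout, 5.91 and 5.04 in knockdown, and 6.15, 6.29 and 6.50 in wild type. All 4 deficient arrays lay below wild type, with changes of -1.75 ± 0.299 SE in knockout (adjusted p = 0.107) and -0.84 ± 0.299 SE in knockdown (adjusted p = 0.306). Parp12, a relative of Parp14, had -0.66 ± 0.127 SE in knockout (adjusted p = 0.13), and Trim34a, of the tripartite-motif family, had -0.57 ± 0.115 SE (adjusted p = 0.136). Tdrd7, an interferon-induced inhibitor of autophagy, had -0.63 ± 0.132 SE in knockdown (adjusted p = 0.162), while the RNA helicase gene Mov10 had 0.56 ± 0.127 SE there (adjusted p = 0.183).

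Markers of cells that could be mixed into the cultures were read on the same arrays. The summed log2 signal of 15 macrophage and blood markers was 68.0 on both knockout arrays, 67.4 to 68.1 in knockdown and 66.4 to 68.4 in wild type, and Ptprc, the gene of the common leukocyte antigen, lay below the array median on every array. Among them Lyz2, a lysozyme gene, stood at 5.59 and 4.81 in knockout, 3.96 and 4.26 in knockdown, and 4.06, 4.03 and 4.25 in wild type. Markers of plasmacytoid dendritic cells, the main source of type I interferon in blood, summed to 39.2 to 39.7 in knockout, 40.7 to 41.2 in knockdown and 40.2 to 41.8 in wild type, with 4 of 7 below the array median on all arrays. Bst2, itself an interferon-stimulated gene, and Tcf4 are on that list and lay above the median on all arrays. Of the 6 markers of that list that were tested, 6 (100%) were lower in knockout by any amount, against 57.1% of all genes. In knockdown 1 (16.7%) was lower, against 42.9%. Endothelial markers summed to 38.8 to 40.9 in knockout, 39.3 in knockdown and 38.3 to 39.7 in wild type, with Flt1, the gene of a vascular growth factor receptor, named after its values were seen, at 8.53 on knockout array 1 and 6.34 to 6.84 elsewhere. Epithelial markers summed to 39.3 to 39.8 in knockout, 39.6 to 40.4 in knockdown and 39.2 to 40.3 in wild type. In each of these sets 6 of 8 genes lay below the array median on all arrays. Their part in the signals of the interferon-stimulated genes was not tested.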

How the data were processed

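The deposited table holds log2 signals, 1 column per array, as the authors left them; that they are on a log2 scale was taken from their range (1.81 to 13.7). Per the submitters' processing notes, affy and R 2.8.0 were used. How the arrays were summarised and normalized is not given in the sources used here. Array medians lay between 5.38 and 5.49. Of 34760 probe sets, 21640 carried 1 symbol in GEO's platform annotation, 1321 several and 11799 none, and only those with 1 were used.

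The filter asked for a signal over an array's 25th percentile on 2 arrays or more. A model with a mean per group was fitted to all 7 arrays at once by limma 3.58.1 under R 4.3.3 (eBayes after lmFit, two-sided, 4 residual degrees of freedom, prior 2.06), and p-values were adjusted by Benjamini-Hochberg over all 16801 genes of each comparison. The code was tested on simulated data. The number of arrays limits the precision. No fold change was taken between probe sets; a gene's place above or below the array median is a description.

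The 44 genes, their role classes and the other gene lists were chosen with earlier results of these data known, so no test over a list is given. Values on every array are given for genes with an unadjusted p under 0.05 in knockout or knockdown and for at least 3 genes of each class. Of other lists, up to 5 genes with the smallest p are named, with Ifnar1 and Ifnar2. Promoter sequences and gene order come from RefSeq (GRCm38.p6), and matching used symbols and gene identifiers. The protein comparison within gene families that had been planned was not done. Alternatives were the filter, quantile normalization, median centring, the mean of probe sets, array weights, a trended and robust prior, fits of the compared groups alone, a replicate block, and leaving out arrays.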

Additional observations from a re-analysis of the deposited data

Results flagged for a closer look

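The knockout and knockdown means of Irgm1 stood on opposite sides of the wild-type mean, with a difference of knockout minus knockdown of 1.01 on the log2 scale (adjusted p = 0.117, limma). Rsad2, which encodes the antiviral enzyme viperin, did the same at a smaller size, with a difference of -0.30 (adjusted p = 0.168, limma). Its signals were 4.29 and 4.39 in knockout, 4.59 and 4.68 in knockdown, and 4.47, 4.46 and 4.54 in wild type, all below the array median. Among other genes with means on opposite sides of wild type, Irf1 (-0.57, adjusted p = 0.124, limma) and Oas3 (-0.48, adjusted p = 0.159, limma) differed more than Rsad2. None of these differences passed the adjusted threshold.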

How the results depend on the processing

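Under 17 alternatives the list median kept its sign: -0.35 to -0.23 in knockout, -0.28 (without wild-type array 2) to -0.14 in knockdown, -0.31 to -0.18 for both deficient groups, and -0.14 (without knockdown array 1) to -0.01 (arrays centred on their medians) for knockout against knockdown. The count of genes lower in knockout at an adjusted p under 0.05 was 1, and it became 2 (Rtp4 and Ddx58) with the stricter filter, quantile normalization, and the trended and robust prior. It became 0 with array weights, in a fit of the compared groups alone, with the replicate block, and without knockout array 2 and knockdown array 2 together, and ranged from 0 to 1 when each array was left out in turn. For both deficient groups the count of 0 became 1 (Rtp4) with the stricter filter and with the trended and robust prior. For knockout against knockdown it ranged from 0 to 1 when each array was left out, with Ddx58 called without knockout array 2. The knockdown count stayed at 0 under every alternative. Deviations of arrays with the same number correlated at -0.074 to 0.199, which does not settle whether the numbers pair the samples. In a group of 2 arrays the deviations mirror each other, so the knockout and knockdown pairs give only 1 value (0.002). With the number as a replicate block, Rtp4 in knockout had -1.98 and an adjusted p of 0.216. Of 403 values for 24 gene and comparison pairs, 389 kept their side of the threshold, 10 no longer passed it (all Rtp4 in knockout) and 4 newly passed it (all Ddx58 in knockout), and none reversed. Over all genes, 28 were called in knockout, and 1 to 79 under the alternatives; the cause was not tested.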
